A study of Mus musculus with 6 samples.

Results

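The urea cycle and the reactions that feed ammonia into it were followed through 10 genes, Cps1, Nags, Otc, Slc25a15, Ass1, Asl, Arg1, Gls2, Hal and Sds, in primary hepatocytes of mice with carbon tetrachloride (CCl4) liver fibrosis, with and without the transcription factor FOXA2. The 10 genes were chosen by name, with earlier results of these data known, and are 10 of 34745 genes in the count tables. All 10 were matched, and all 10 passed the filter on low counts that left 14417 genes for testing. FOXA2f/f mice have floxed Foxa2 alleles, and those of the control group received the AAV8-TBG-Control virus. FOXA2H-KO mice are FOXA2f/f mice that received AAV8-TBG-Cre, in which the TBG promoter drives Cre recombinase in hepatocytes. In both groups the mice were male and 12 weeks old, the virus preceded CCl4 by 2 weeks, and CCl4 (0.25 ml/kg) was injected 2 times per week for 4 weeks, with hepatocytes taken on day 3 after the last injection. There were 3 RNA-seq libraries per group, numbered 1, 2 and 4 in the labels, and every library came from CCl4-treated mice, so that an effect of CCl4 itself was not measured.

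The liver turns toxic ammonia into urea. In mitochondria ammonia is fixed as carbamoyl phosphate and joined to ornithine to make citrulline, and in the cytosol citrulline is converted through argininosuccinate to arginine, from which urea is released. In the liver lobule these enzymes are most abundant in hepatocytes around the portal vein, whereas glutamine synthetase takes up the remaining ammonia in the last hepatocytes around the central vein, the zone in which CYP2E1 activates CCl4.

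None of the 10 genes differed between FOXA2H-KO and FOXA2f/f hepatocytes beyond the spread between libraries. By edgeR's quasi-likelihood test 0 of 10 had an adjusted p under 0.05 with a fold change of at least 2, 0 of 10 had an unadjusted p under 0.05, and DESeq2, edgeR's exact test and limma on FPKM also called 0 of 10. Over all genes tested the quasi-likelihood test called 0.00694%, which is 1 gene, Foxa2, DESeq2 called 0.486% (70 genes), edgeR's exact test 0.444% (64 genes) and limma 0.0% (0 genes). The values of the FOXA2f/f and FOXA2H-KO libraries overlapped for all 10 genes, against 10.5% of all genes tested whose groups did not overlap. The fitted log2 fold change, given throughout as FOXA2H-KO minus FOXA2f/f, was below 0 for 8 of 10 genes, against 52.2% of all genes tested. Both values depended on the scaling. With library size alone 6 of 10 were below 0, against 32.3% of all genes tested. With limma on FPKM 6 of 10 were, against 29.9% of the 10278 genes in that fit. The median log2 fold change was -0.22 over the 10 genes and -0.01 over all genes tested. This median depended on single libraries: it was -0.08, with 6 of 10 genes below 0, without FOXA2f/f replicate 2, -0.13 without FOXA2H-KO replicate 1, and -0.35 without FOXA2f/f replicate 4.

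Foxa2, the deleted gene, was measured first as a check of the labels. Its level, in CPM (read counts relative to library size after TMM scaling), was 19.0, 13.5 and 16.4 in FOXA2f/f replicates 1, 2 and 4 and 1.03, 0.762 and 1.62 in FOXA2H-KO replicates 1, 2 and 4. The mean fell from 16.3 ± 2.75 to 1.14 ± 0.438 CPM (SD, n = 3 libraries each), which left 6.98% of the FOXA2f/f level. The log2 fold change was -3.85 (SE 0.31, edgeR's quasi-likelihood adjusted p = 0.0313). The labelled groups were thus separated at the targeted gene in all 6 libraries.

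Total counts lay between 20983455 and 28327765 per library. The hepatocyte markers Alb, Ttr, Apoa1, Apob and 6 others summed to between 1.34e+05 and 1.92e+05 CPM in FOXA2f/f and between 1.28e+05 and 1.62e+05 CPM in FOXA2H-KO libraries, so the labelled cell type was present in every library. Markers of other liver cells were detected at lower levels, and FOXA2f/f replicate 2 stood apart by holding the least of most of them. The 10 macrophage markers summed to 1232, 581 and 2609 CPM in FOXA2f/f replicates 1, 2 and 4 and to between 1301 and 1881 CPM in FOXA2H-KO libraries, and the 10 endothelial markers to between 267 and 902 and between 461 and 582 CPM. The 10 stellate cell and fibroblast markers summed to between 1084 and 2781 CPM in FOXA2f/f and between 1617 and 2648 CPM in FOXA2H-KO libraries, and 6 cholangiocyte markers to between 174 and 368 and between 252 and 708 CPM. The 9 lymphocyte markers did not exceed 8.55 CPM in any library, with Cd3e and Cd3g at 0 in some, the 7 neutrophil markers did not exceed 66.6 CPM, with Ly6g at 0 in some, and Slc4a1 of the 6 red blood cell genes was at 0 in some. The summed red blood cell genes were at 46.5, 86.0 and 53.6 CPM in FOXA2f/f and 31.0, 39.1 and 29.6 CPM in FOXA2H-KO replicates 1, 2 and 4, the only one of these 8 sums whose groups did not overlap. In fitted log2 fold change, cholangiocyte markers were above 0 for 6 of 6 genes (median 0.82, and 0.34 without FOXA2H-KO replicate 1). Krt7 and Spp1, named after their values were seen, were higher at an unadjusted p under 0.05. At the same threshold 2 of 6 tested neutrophil markers and 1 of 5 tested red blood cell genes were lower in FOXA2H-KO. Over all genes tested, 1.98% were higher and 3.18% lower. The other marker lists had 0 such genes, and 0 markers were called. Macrophage markers were above 0 for 9 of 10 (median 0.32) and stellate cell and fibroblast markers for 9 of 10 (median 0.22), and these medians were -0.03 and -0.05 without FOXA2f/f replicate 2 and 0.99 and 0.77 without FOXA2f/f replicate 4. Endothelial markers were above 0 for 5 of 10 (median -0.0013) and lymphocyte markers for 5 of 6 tested (median 0.30). Neutrophil markers were above 0 for 2 of 6 tested (median -0.31) and red blood cell genes for 3 of 5 tested (median 0.0003). With 1 library left out, these medians ran from -0.32 to 0.62 for endothelial and -0.06 to 0.89 for lymphocyte markers. They ran from -0.74 to 0.35 for neutrophil markers and -0.98 to 0.40 for red blood cell genes. Hepatocyte markers were below 0 for 9 of 10 (median -0.25, and -0.05 without FOXA2f/f replicate 2). The part of cell composition in the values below was not tested, and in such bulk samples fewer hepatocytes of a zone and less RNA per hepatocyte cannot be told apart.

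The promoters of the members were searched because the deleted factor binds DNA through a forkhead domain. The table of RefSeq promoter sequences (GRCm38.p6) held windows for 5 of the 10 genes, Otc, Ass1, Nags, Slc25a15 with 2 start sites, and Hal. It did not hold Cps1, Asl, Arg1, Gls2 or Sds. In the 250 bases before each of the 6 starts, 3 forkhead words were searched on both strands and none occurred. Of all 32851 windows of the same length, TGTTTAC was present in 3.17%, TATTTAC in 2.73% and TGTTTGC in 4.30%, and 9.73% held at least 1 of them. The core of the cyclic AMP response element, TGACG (17.8% of all windows), and the HNF4A word CAAAGTCCA (0.384% of all windows) occurred in 0 of 6 windows as well. The C/EBP word TTGCNNAA, also searched as TTNNGCAA for the other strand, occurred in the Hal window alone, 150 bases before the start, and in 9.56% of all windows. The Hal and Otc windows are printed 5′ to 3′ on the plus strand of the gene, as the window with a match and a window of a cycle enzyme with none, and capitals mark the C/EBP word. The Hal bases lie at chr10:93488518-93488767 and the Otc bases at chrX:10252055-10252304.
Hal: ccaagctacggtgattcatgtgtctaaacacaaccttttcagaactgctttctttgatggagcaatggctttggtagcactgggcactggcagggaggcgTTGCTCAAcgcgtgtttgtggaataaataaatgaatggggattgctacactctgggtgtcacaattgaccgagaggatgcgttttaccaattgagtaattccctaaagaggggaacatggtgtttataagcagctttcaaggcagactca
Otc: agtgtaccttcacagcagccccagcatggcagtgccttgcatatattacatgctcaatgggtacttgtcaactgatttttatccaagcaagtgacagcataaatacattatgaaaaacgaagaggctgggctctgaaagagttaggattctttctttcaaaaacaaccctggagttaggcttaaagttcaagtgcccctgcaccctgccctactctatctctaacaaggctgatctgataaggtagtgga
These letters describe the windows only, since other forms of the forkhead word, enhancers and other starts were not searched and binding was not measured in this series.

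The abundance of the 10 transcripts spanned a wide range. Levels of different genes were compared on the authors' FPKM scale (fragments per kilobase of gene, scaled to the total count), which divides by gene length. Cps1 had the highest mean level, 1022 FPKM over the 6 libraries (lowest 854, highest 1257). Ass1 followed at 753 FPKM (610 to 941) and Arg1 at 729 FPKM (615 to 855). Ass1 exceeded Arg1 in 3 of 6 libraries, so the order of these neighbours was not settled. A lower tier held Otc at 91.1 FPKM (80.6 to 99.5), Slc25a15 at 78.2 FPKM (64.0 to 87.7), Sds at 58.0 FPKM (23.7 to 91.8) and Asl at 54.6 FPKM (36.1 to 70.3). Hal at 41.1 FPKM (34.2 to 49.1), Gls2 at 39.2 FPKM (30.6 to 48.7) and Nags at 10.9 FPKM (9.05 to 12.0) were the least abundant. Otc exceeded Slc25a15 in 5 of 6 libraries, Slc25a15 exceeded Sds in 5, Sds exceeded Asl in 4, Asl exceeded Hal in 5, and Hal exceeded Gls2 in 4, whereas Gls2 exceeded Nags in all 6. The order within the lower tier also rested on the gene length used. With the exonic length in GENCODE M21 in place of the authors' length, Slc25a15 (5629 bases against 3451) moved from rank 5 to rank 9 and Gls2 (3474 bases against 7682) from rank 9 to rank 5, while Cps1, Ass1, Arg1 and Otc kept ranks 1 to 4 and Nags rank 10.

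**Figure D1:**
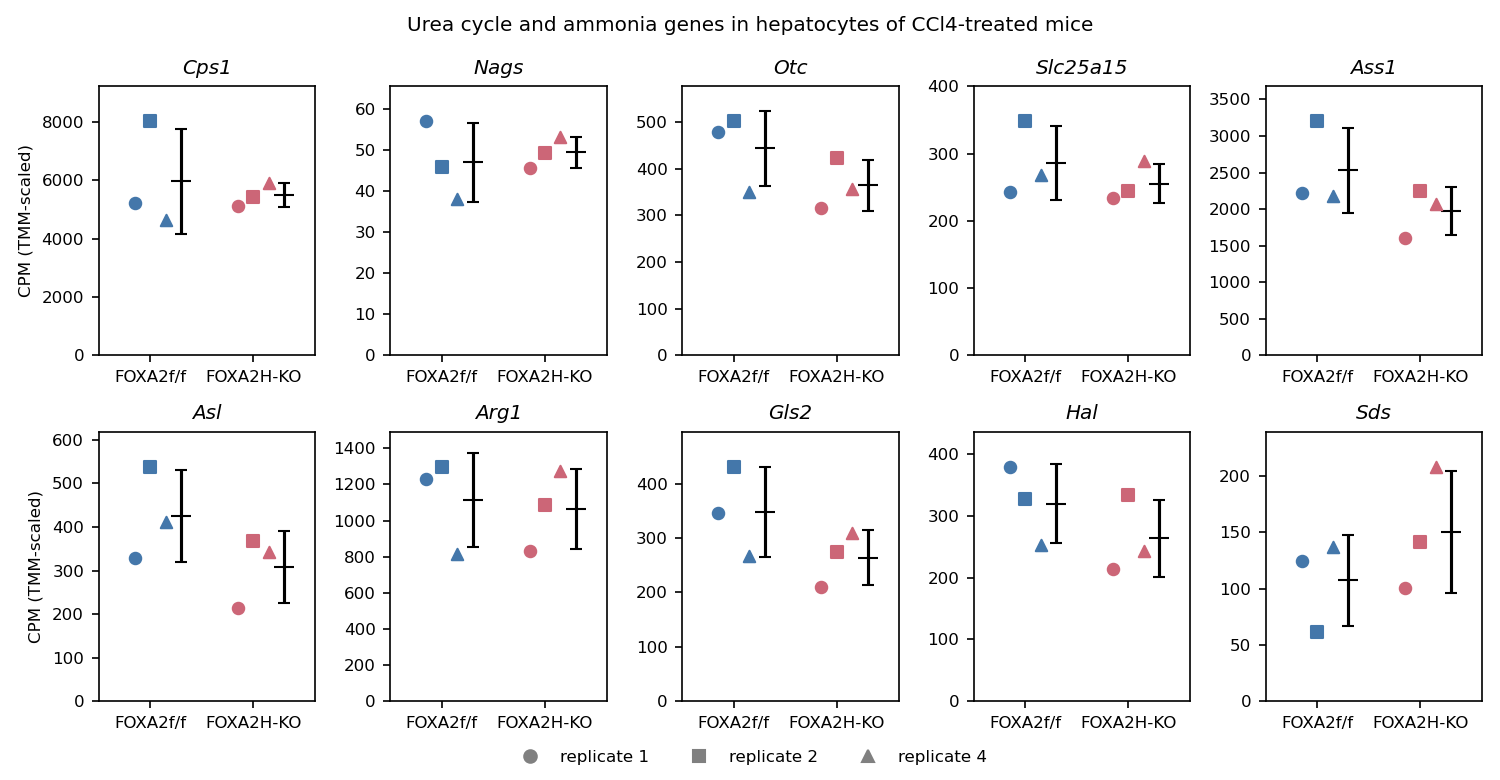
Level of each of the 10 genes in each library (vertical axis, TMM-scaled CPM from 0) in the FOXA2f/f and FOXA2H-KO groups (horizontal axis), with point shape for the replicate number and black bars for the mean and SD of 3 libraries. In all 10 panels the 2 groups overlap, and FOXA2f/f replicate 2 (square) is the highest library for 7 genes and the lowest for Sds.

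The first step of the cycle was carried by the most abundant transcript. Cps1 (ENSMUSG00000025991, GRCm38 chromosome 1, 67123026 to 67231259, plus strand) encodes the mitochondrial carbamoyl phosphate synthetase, which fixes ammonia and is rate-limiting for urea synthesis. Its level was 5217, 8033 and 4658 CPM in FOXA2f/f replicates 1, 2 and 4 and 5107, 5439 and 5923 CPM in FOXA2H-KO replicates 1, 2 and 4. All 3 FOXA2H-KO libraries fell between the lowest and the highest FOXA2f/f library, and the SD was 1809 CPM in FOXA2f/f and 410 CPM in FOXA2H-KO. FOXA2H-KO minus FOXA2f/f came to -0.12 on the log2 scale (SE 0.29, 95% interval -0.79 to 0.55, edgeR's quasi-likelihood adjusted p = 0.992), and it turned to 0.15 without FOXA2f/f replicate 2 and to 0.02 with library size alone as scaling.

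Nags (ENSMUSG00000048217, chromosome 11, 102145513 to 102149477, plus strand) makes N-acetylglutamate, without which CPS1 is inactive. Its level was 57.0, 45.8 and 38.0 CPM in FOXA2f/f and 45.7, 49.3 and 53.2 CPM in FOXA2H-KO replicates 1, 2 and 4. The FOXA2H-KO libraries again lay inside the FOXA2f/f range. The log2 fold change was 0.07 (SE 0.17, 95% interval -0.32 to 0.46, edgeR's quasi-likelihood adjusted p = 0.992), the narrowest interval of the 10 genes, and it turned to -0.06 without FOXA2f/f replicate 4. The gene shares 15.6% of its exonic bases with the antisense gene Gm11586, and because the sources used here do not say whether counting used strand, reads of these genes cannot be told apart.

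The mitochondrial step that makes citrulline and the carrier that exports it also showed overlapping groups. Otc (ENSMUSG00000031173, chromosome X, 10252305 to 10321024, plus strand) joins carbamoyl phosphate to ornithine. Its level was 478, 502 and 351 CPM in FOXA2f/f and 316, 424 and 356 CPM in FOXA2H-KO replicates 1, 2 and 4, so that FOXA2f/f replicate 4 lay with the FOXA2H-KO libraries. The mean was 444 ± 81.4 CPM in FOXA2f/f and 365 ± 54.6 CPM in FOXA2H-KO (SD, n = 3 each), or 82.3%. This was a log2 fold change of -0.28 (SE 0.20, 95% interval -0.75 to 0.19, edgeR's quasi-likelihood adjusted p = 0.983), and it was below 0 in all 14 alternative fits. Those fits reuse the same 6 libraries, and Slc25a15, Ass1, Asl, Gls2, Hal and Sds also kept their sign in all 14. Slc25a15 (ENSMUSG00000031482, chromosome 8, 22375551 to 22398597, minus strand) exchanges ornithine for citrulline across the inner mitochondrial membrane. Its level was 243, 348 and 268 CPM in FOXA2f/f and 233, 244 and 289 CPM in FOXA2H-KO replicates 1, 2 and 4. FOXA2f/f replicate 2 was the highest library, and without it the log2 fold change went from -0.17 (SE 0.18) to -0.00036.

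The cytosolic enzymes that make argininosuccinate and split it had the lowest fitted log2 fold changes within the cycle. Ass1 (ENSMUSG00000076441, chromosome 2, 31470207 to 31520672, plus strand) joins citrulline to aspartate, which brings the second nitrogen of urea. Its level was 2223, 3204 and 2173 CPM in FOXA2f/f and 1607, 2253 and 2070 CPM in FOXA2H-KO replicates 1, 2 and 4. FOXA2H-KO replicate 2 exceeded FOXA2f/f replicates 1 and 4, and the difference in means, 2533 ± 581 against 1977 ± 333 CPM (SD, n = 3 each), was within the FOXA2f/f SD. The groups differed by -0.36 on the log2 scale (SE 0.25, 95% interval -0.94 to 0.23, edgeR's quasi-likelihood adjusted p = 0.983), and it was -0.15 without FOXA2f/f replicate 2.

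Asl (ENSMUSG00000025533, chromosome 5, 130011258 to 130029247, minus strand) splits argininosuccinate into arginine and fumarate. Its level was 328, 538 and 411 CPM in FOXA2f/f and 213, 367 and 343 CPM in FOXA2H-KO replicates 1, 2 and 4. FOXA2H-KO replicates 2 and 4 exceeded FOXA2f/f replicate 1, so the groups overlapped. Asl had the lowest log2 fold change of the 10 genes, -0.47 (SE 0.27, 95% interval -1.08 to 0.15, edgeR's quasi-likelihood adjusted p = 0.960), and this interval included a decrease of 2-fold. The value was -0.26 without FOXA2H-KO replicate 1, the lowest library, and -0.61 without FOXA2H-KO replicate 2.

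Arg1 (ENSMUSG00000019987, chromosome 10, 24915221 to 24927484, minus strand) releases urea from arginine and regenerates ornithine. Its level was 1232, 1297 and 818 CPM in FOXA2f/f and 832, 1085 and 1273 CPM in FOXA2H-KO replicates 1, 2 and 4. The lowest libraries of the groups, FOXA2f/f replicate 4 and FOXA2H-KO replicate 1, were close to each other, as were the highest, and the means were 1116 ± 260 and 1063 ± 221 CPM (SD, n = 3 each). The log2 fold change of -0.07 (SE 0.26, 95% interval -0.66 to 0.52, edgeR's quasi-likelihood adjusted p = 0.993) changed sign in 5 of 14 alternative fits, those without FOXA2f/f replicate 1 or 2 or FOXA2H-KO replicate 1, with library size alone, and with limma on FPKM, where it reached at most 0.08.

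Among the enzymes that release ammonia from amino acids, Gls2 and Hal were lower in fitted value and Sds was higher. Gls2 (ENSMUSG00000044005, chromosome 10, 128194457 to 128210004, plus strand), the liver glutaminase, frees ammonia from glutamine next to CPS1. Its level was 347, 431 and 267 CPM in FOXA2f/f and 209, 274 and 309 CPM in FOXA2H-KO replicates 1, 2 and 4. FOXA2f/f replicate 4 lay below FOXA2H-KO replicates 2 and 4. Gls2 had a log2 fold change of -0.40 (SE 0.23, 95% interval -0.93 to 0.13, edgeR's quasi-likelihood adjusted p = 0.962), which was -0.21 without FOXA2f/f replicate 2 and -0.56 without FOXA2f/f replicate 4.

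Hal (ENSMUSG00000020017, chromosome 10, 93488768 to 93519304, plus strand) starts the breakdown of histidine by removing its amino group as ammonia, and its promoter window is the one with the C/EBP word. Its level was 379, 328 and 252 CPM in FOXA2f/f and 214, 334 and 244 CPM in FOXA2H-KO replicates 1, 2 and 4. FOXA2H-KO replicate 2 exceeded FOXA2f/f replicates 2 and 4, and the log2 fold change was -0.28 (SE 0.23, 95% interval -0.80 to 0.25, edgeR's quasi-likelihood adjusted p = 0.983). It was -0.48 without FOXA2H-KO replicate 2 and -0.12 without FOXA2f/f replicate 1.

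Sds (ENSMUSG00000029597, chromosome 5, 120476526 to 120483932, plus strand), which converts serine to pyruvate and ammonia, was the most variable of the 10 genes. Its level was 124, 61.4 and 137 CPM in FOXA2f/f and 101, 142 and 208 CPM in FOXA2H-KO replicates 1, 2 and 4, a range of 3.39-fold. FOXA2f/f replicate 2, the highest library for 7 other members, was the lowest for Sds. The log2 fold change was 0.48 (SE 0.35, 95% interval -0.33 to 1.30, edgeR's quasi-likelihood adjusted p = 0.983), and it was 0.18 without FOXA2H-KO replicate 4 and 0.70 without FOXA2H-KO replicate 1. Sds shares 29.6% of its exonic bases with Plbd2 and the antisense gene Gm15690 on the opposite strand, and the reads of these genes cannot be told apart here.

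**Figure D2:**
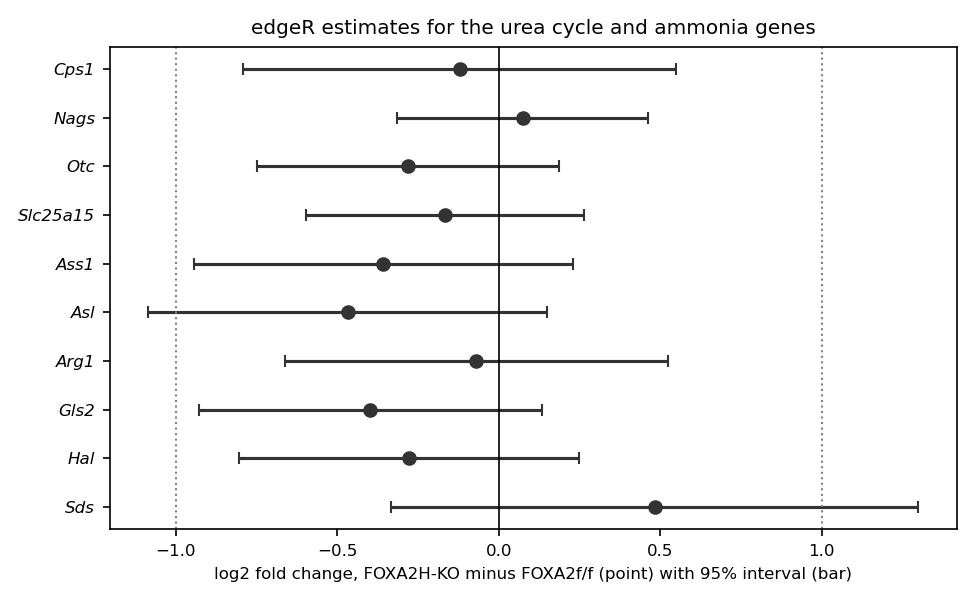
Log2 fold change of each of the 10 genes (horizontal axis, FOXA2H-KO minus FOXA2f/f) with its 95% interval from edgeR (bars), and dotted lines at a 2-fold change in either direction. All 10 intervals include 0, and those of Asl (-1.08 to 0.15) and Sds (-0.33 to 1.30) reach past a dotted line.

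The intervals state how much change these libraries leave possible. All 10 intervals included 0, so no direction was established for any gene. For 8 of 10 genes the 95% interval lay within a 2-fold change in both directions, and the exceptions were Asl at its lower bound and Sds at its upper bound. Counting error was small beside the spread between libraries. It was at most 3.46% of the value for any member in any library, whereas the coefficient of variation within groups was between 15.3% for Nags and 36.8% for Sds. The median SD of log2 CPM within groups was 0.31 over the 10 genes and 0.26 over all genes tested.

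Part of the spread was shared among the members of a library. FOXA2f/f replicate 2 was the highest library for 7 of 10 genes, Cps1, Otc, Slc25a15, Ass1, Asl, Arg1 and Gls2. FOXA2H-KO replicate 1 was the lowest for 6 of 10, Otc, Slc25a15, Ass1, Asl, Gls2 and Hal, and FOXA2f/f replicate 4 was the lowest for Cps1, Nags and Arg1. The mean deviation of the 10 genes from their own mean log2 CPM was 0.10, 0.23 and -0.11 in FOXA2f/f replicates 1, 2 and 4 and -0.35, 0.04 and 0.09 in FOXA2H-KO replicates 1, 2 and 4. Within each group the libraries lay on both sides of 0. Arg1 lay nearest to this mean profile, with a mean absolute difference of 0.10 on the log2 scale over 6 libraries, followed by Otc at 0.11 and Ass1 at 0.13, and Sds lay farthest from it at 0.42, with Asl next at 0.24. The TMM factors were 0.910, 0.870 and 1.11 in FOXA2f/f and 1.12, 1.02 and 0.993 in FOXA2H-KO replicates 1, 2 and 4. Libraries ranked by mean deviation were thus in the reverse order of their TMM factors. Without this scaling, the members' share of all counts was lowest in FOXA2f/f replicate 1 (0.967%), against 0.997% in FOXA2H-KO replicate 1. The part of the scaling in the shared spread was not tested.

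**Figure D3:**
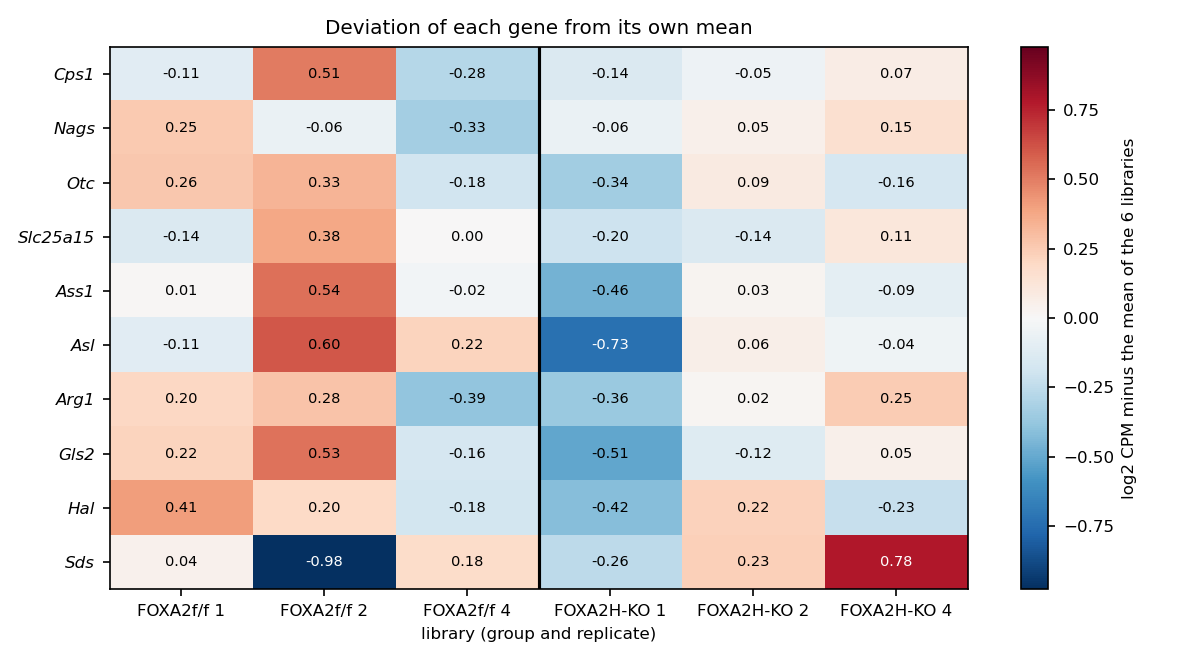
Log2 CPM of each of the 10 genes (rows) in each of the 6 libraries (columns) minus that gene's mean over the libraries, with red for above and blue for below the mean and a black line between the groups. FOXA2f/f replicate 2 is red for 8 genes and blue for Sds (-0.98), and FOXA2H-KO replicate 1 is blue for all 10.

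Genes outside the set that followed the same course over the 6 libraries were found among 8285 other genes with a mean of at least 10 CPM. The 5 nearest to the members' mean profile were Rpl29, Erh, Pgm1, Alb and Rps4x, with mean absolute differences between 0.029 and 0.035 on the log2 scale. Alb, which encodes serum albumin, was at 1.13e+05, 1.25e+05 and 89394 CPM in FOXA2f/f and at 83490, 1.06e+05 and 1.11e+05 CPM in FOXA2H-KO replicates 1, 2 and 4, and its log2 fold change was -0.12 (edgeR's quasi-likelihood adjusted p = 0.993). Rpl29 and Rps4x encode ribosomal proteins, and Pgm1 encodes a phosphoglucomutase. These likenesses are a description over the same 6 libraries.

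The summed FPKM of the 10 members was 2657, 3341 and 2762 in FOXA2f/f and 2595, 2907 and 3001 in FOXA2H-KO replicates 1, 2 and 4, of which Cps1, Ass1 and Arg1 made up most. The 10 genes held between 0.967% and 1.29% of all counts. The opposite zone was followed through 14 pericentral genes, whose summed FPKM was 1734, 933 and 1848 in FOXA2f/f and 2462, 2206 and 1625 in FOXA2H-KO replicates 1, 2 and 4. FOXA2f/f replicate 2 thus had the highest periportal and the lowest pericentral sum. The pericentral sum rested largely on Cyp2e1 and Rgn, at means of 641 and 513 FPKM over the 6 libraries. Cyp2e1 was at 291 CPM in FOXA2f/f replicate 2, against 1267 and 1023 CPM in replicates 1 and 4, so the low sum need not hold for the whole list. The ratio of the sums was 1.53, 3.58 and 1.49 in FOXA2f/f and 1.05, 1.32 and 1.85 in FOXA2H-KO libraries, and the groups overlapped. The difference in mean log2 ratio was -0.56 (exact two-sided permutation p = 0.4, where 3 libraries against 3 cannot give a p below 0.1), and it was -0.15 without FOXA2f/f replicate 2.

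**Figure D4:**
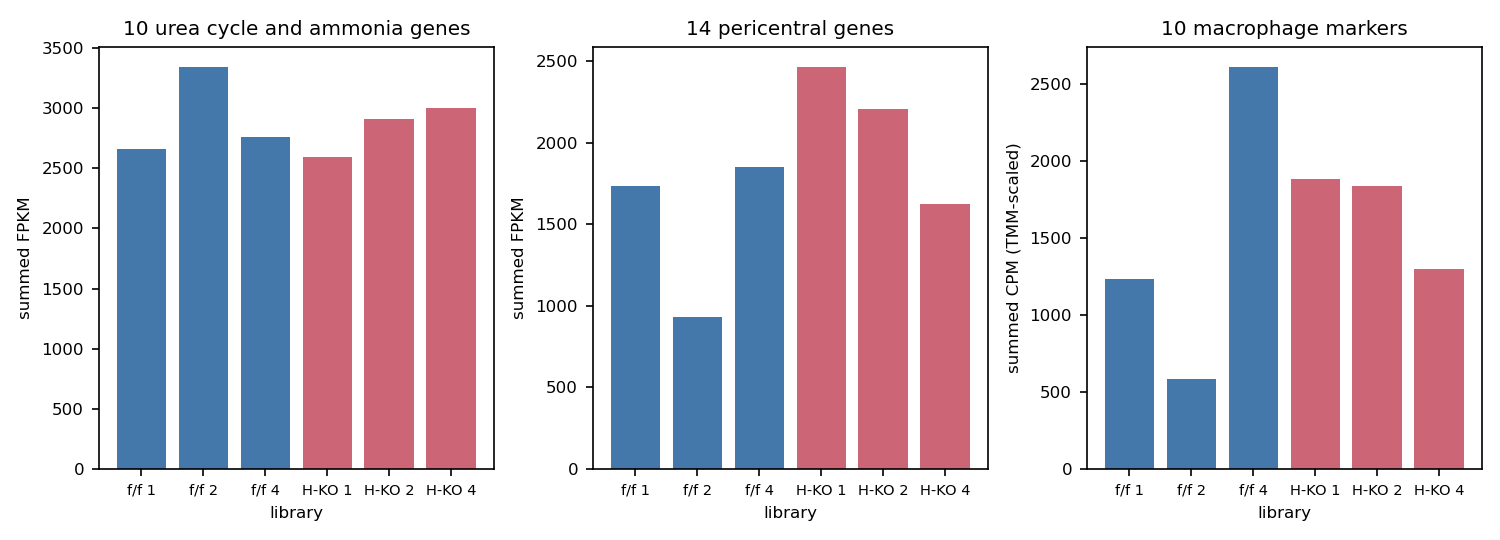
Summed level per library (bars from 0) of the 10 members in FPKM, of 14 pericentral hepatocyte genes in FPKM and of 10 macrophage markers in TMM-scaled CPM, with FOXA2f/f libraries in blue and FOXA2H-KO libraries in red. FOXA2f/f replicate 2 has the highest member sum (3341 FPKM) and the lowest pericentral (933 FPKM) and macrophage (581 CPM) sums.

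The pathways that border the cycle gave 0 genes called by edgeR apart from Foxa2 itself. At an unadjusted p under 0.05, 1.98% of all genes tested were higher and 3.18% lower in FOXA2H-KO. Lower at this threshold were 3 of 14 histidine, serine and glycine breakdown genes and 3 of 12 other periportal genes. So were 2 of 16 glutamine and glutamate genes and 2 of 15 regulators, Foxa2 among them. Urea cycle support had 1 of 13 lower and the pericentral list 0 of 12. Only Oat, in the glutamine and pericentral lists, was higher. Most lower shares exceeded 3.18%, but they rested on at most 3 genes per list, and Foxa2 is the deleted gene. The lists were chosen with earlier results of these data known, and an excess was not tested. Of the urea cycle support genes, which supply bicarbonate, aspartate, carriers and the enzymes that modify CPS1, 13 of 14 were tested, 11 were below 0 and 2 above 0, with a median log2 fold change of -0.31, and 1 had an unadjusted p under 0.05. The median was -0.13 without FOXA2H-KO replicate 1 and -0.14 without FOXA2f/f replicate 2. That gene was Aqp8, a water channel that also passes ammonia, at 36.8, 70.6 and 30.4 CPM in FOXA2f/f and 27.8, 23.1 and 9.80 CPM in FOXA2H-KO (log2 fold change -1.18, SE 0.43, edgeR's quasi-likelihood adjusted p = 0.875). Sirt5, a deacylase of CPS1, had a log2 fold change of -0.50 (SE 0.22, adjusted p = 0.941 by the same test). The most abundant genes of this list, Got2 and Mdh1 of the malate-aspartate shuttle, had log2 fold changes of -0.34 (SE 0.22) and -0.31 (SE 0.26), which were -0.14 and -0.048 without FOXA2f/f replicate 2.

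Glutamine and glutamate handling held Oat, the gene of these lists with the largest log2 fold change after Foxa2. Of its 18 genes 16 were tested, 8 of them above and 8 below 0 (median log2 fold change -0.05, and between -0.17 and -0.04 over the fits without 1 library). Oat is the ornithine aminotransferase that turns ornithine into glutamate and is most abundant around the central vein. It was at 26.1, 14.2 and 35.4 CPM in FOXA2f/f and 89.9, 103 and 89.6 CPM in FOXA2H-KO replicates 1, 2 and 4. All 3 FOXA2H-KO libraries exceeded all 3 FOXA2f/f libraries, and the log2 fold change was 1.89 (SE 0.30, 95% interval 1.20 to 2.59). Oat missed the threshold by edgeR's quasi-likelihood test (adjusted p = 0.539) and passed it by DESeq2 (adjusted p = 1.24e-05), and its log2 fold change was between 1.61 and 2.22 over the fits that each left out 1 library. Aspg, which splits asparagine into aspartate and ammonia, was at 192, 164 and 128 CPM in FOXA2f/f and 71.2, 99.9 and 58.8 CPM in FOXA2H-KO. Its groups did not overlap either, with a log2 fold change of -1.07 (SE 0.24), an edgeR quasi-likelihood adjusted p of 0.579 and a DESeq2 adjusted p of 0.0113. Aldh4a1, of proline breakdown, named after its values were seen, was the other gene of this list with an unadjusted p under 0.05 (log2 fold change -0.49, SE 0.15, adjusted p = 0.762 by edgeR's quasi-likelihood test). The abundant genes Glud1, the glutamate dehydrogenase, and Slc38a4, an amino acid transporter, had log2 fold changes of -0.29 (SE 0.19) and -0.13 (SE 0.19).

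Of the histidine, serine and glycine breakdown genes, 14 of 15 were tested and all 14 had a log2 fold change below 0, with a median of -0.32, and 3 had an unadjusted p under 0.05. Agxt, which transfers the amino group of alanine to glyoxylate, was at 164, 128 and 143 CPM in FOXA2f/f and 78.2, 114 and 96.1 CPM in FOXA2H-KO replicates 1, 2 and 4 (log2 fold change -0.60, SE 0.18, edgeR's quasi-likelihood adjusted p = 0.762). Gnmt, the glycine methyltransferase, was at 512, 440 and 478 CPM in FOXA2f/f and 287, 396 and 319 CPM in FOXA2H-KO (log2 fold change -0.51, SE 0.18, adjusted p = 0.836 by the same test). The groups did not overlap for these genes. Shmt2, a serine hydroxymethyltransferase named after its values were seen, was the other one (log2 fold change -0.40, SE 0.16). Ftcd, which acts further down the histidine pathway that Hal opens, had a log2 fold change of -0.35 (SE 0.19). Without FOXA2f/f replicate 2 the median of this list was -0.18.

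Other periportal hepatocyte genes were divided, with 5 above and 7 below 0 among 12 tested and a median log2 fold change of -0.03, which was 0.03 without FOXA2H-KO replicate 1 and -0.12 without FOXA2H-KO replicate 2. Hsd17b6, a steroid dehydrogenase, had a log2 fold change of -0.82 (SE 0.22), Fbp1, of gluconeogenesis, one of -0.88 (SE 0.27), and Aldh1b1, a mitochondrial aldehyde dehydrogenase named after its values were seen, one of -0.70 (SE 0.22), all 3 at an unadjusted p under 0.05. Pck1, the other gluconeogenic enzyme named here, had one of 0.35 (SE 0.34) and Hsd17b13, a lipid droplet protein, one of 0.44 (SE 0.23). The fitted values of these periportal genes thus lay on both sides of 0, and none was called.

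The pericentral list shares Glul, Oat, Slc1a2 and Rhbg with the glutamine list. Of the pericentral genes 12 of 14 were tested, 11 were above 0 and 1 below 0, with a median log2 fold change of 0.28, and 1, Oat, had an unadjusted p under 0.05. Cyp2e1, the enzyme that activates CCl4, was at 1267, 291 and 1023 CPM in FOXA2f/f and 1685, 1415 and 1159 CPM in FOXA2H-KO replicates 1, 2 and 4, so that FOXA2f/f replicate 2 was the lowest library and the groups overlapped. Its log2 fold change was 0.72 (SE 0.48, edgeR's quasi-likelihood adjusted p = 0.983). Rgn and Lect2, also pericentral, had log2 fold changes of 0.27 (SE 0.22) and 0.54 (SE 0.25). Without FOXA2f/f replicate 2 the median of the list was 0.12, and without FOXA2f/f replicate 1 it was 0.55.

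Among 15 hormone and factor regulators of these genes, 8 were above and 7 below 0 (median log2 fold change 0.08). This median changed sign to -0.056 without FOXA2H-KO replicate 4 and to -0.029 without FOXA2f/f replicate 4. Gcgr, the receptor for glucagon, the hormone that raises urea cycle enzymes in fasting, was at 155, 168 and 135 CPM in FOXA2f/f and 110, 115 and 98.1 CPM in FOXA2H-KO replicates 1, 2 and 4. The groups did not overlap, but the log2 fold change of -0.50 (SE 0.14) missed the threshold (edgeR's quasi-likelihood adjusted p = 0.716). Hnf4a, a hepatocyte nuclear factor, had a log2 fold change of -0.06 (SE 0.16, 95% interval -0.44 to 0.31), and Creb3l3, a liver transcription factor of the fasting response, one of -0.13 (SE 0.18).

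**Figure D5:**
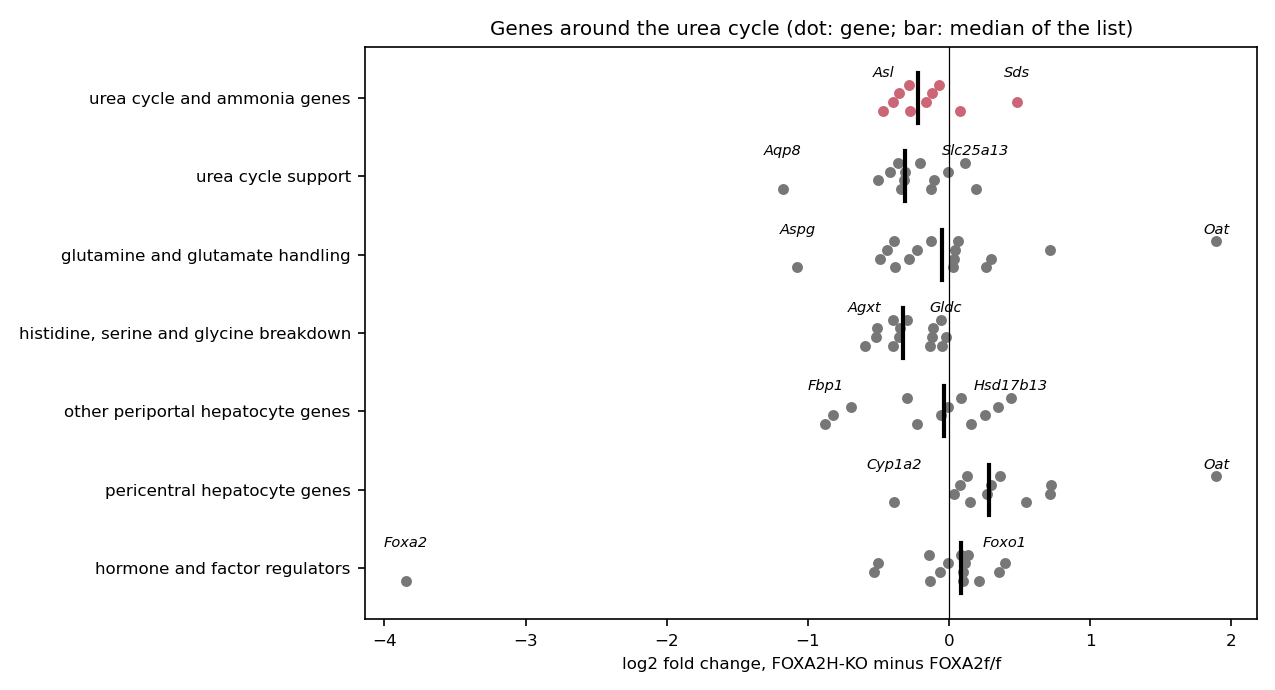
Log2 fold change (horizontal axis, FOXA2H-KO minus FOXA2f/f) of each tested gene (dots) in the 10 members and in 6 neighbouring lists (rows), with a black bar at the median of each list and the lowest and highest gene of each named. The member dots lie between -0.47 (Asl) and 0.48 (Sds), while Foxa2 (-3.85) and Oat (1.89) are the outermost genes.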

How the data were processed

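Poly-A RNA of primary hepatocytes was sequenced as paired-end TruSeq libraries. The authors deposited, for each library, whole-number read counts per Ensembl gene without normalization and FPKM values. The FPKM follow from the counts, the total count and 1 length per gene. The submitters' processing notes name CASAVA 1.8, TopHat2 2.1.0, HTSeq, edgeR and mm10. Their roles and whether counting used strand are not given in the sources used here. A whole-series table holding the same values was not used.

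The analysis ran edgeR 4.0.16 in R 4.3.3 on the counts (filterByExpr, TMM scaling, quasi-likelihood test without a block) over all 14417 genes that passed the filter, with Benjamini-Hochberg adjustment over all of them. A gene was called at an adjusted p under 0.05 and a fold change of at least 2. The biological coefficient of variation was 25.3%. Total counts of 20983455 to 28327765 give the counting error stated in the report. The labels do not say whether each library came from 1 mouse, so the p-values measure only the spread between these libraries, and no batch or date is given. Replicates were not near-identical (chi-square of their counts at least 39.0 times its degrees of freedom). Positions, exonic lengths and overlaps are from GENCODE M21 on GRCm38, and promoter windows from RefSeq (GRCm38.p6). The ratio of sums was compared by an exact two-sided permutation test (Python 3.11.15, scipy 1.17.1). The edgeR steps were tested on simulated data.

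The members, the gene lists and the tests were chosen with earlier results of these data known. Named genes are Foxa2 and the 10 members, and of each neighbouring list every called gene, the 2 with the smallest p and the 2 with the highest mean FPKM, with others marked. The marker list of 1 cell type is given without a gene that is not reported here. Likeness was ranked by the mean absolute difference of centred log2 CPM. Alternatives were DESeq2 1.42.0, upper quartile scaling, library size alone, edgeR's exact test, keeping all genes with any count, a minimum of 10 counts per library, limma 3.58.1 on log2(FPKM + 1) for genes with a mean FPKM of 1 or more, a block on replicate number, omission of single libraries, other thresholds, and for the ratio summed CPM and mean log2 CPM.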

Additional observations from a re-analysis of the deposited data

How the results depend on the processing

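None of the 10 members was called under any of the 16 alternatives, and the median of their log2 fold changes stayed below 0, from -0.35 to -0.08 over the fits that each left out 1 library. Library size alone raised the median of all genes by 0.12, and relative to all genes the members' median was -0.20 with it and -0.21 with TMM scaling. Signs changed for 3 members. Cps1 went to 0.021 with library size alone and 0.041 with limma on FPKM, and ranged from -0.27 to 0.15 with 1 library left out. Arg1 went to 0.065 and 0.061 under the same 2 settings and ranged from -0.25 to 0.080 with 1 library left out, and Nags ranged from -0.058 to 0.25. The number of genes called over all genes was 1 by the quasi-likelihood test, 70 by DESeq2, 64 by edgeR's exact test, 2 without the filter, 0 with library size alone or limma, 254 at an unadjusted p with the fold threshold, and 0 to 6 with 1 library left out, the 6 without FOXA2f/f replicate 2. Foxa2 kept its direction but missed the threshold with library size alone (log2 fold change -3.74), limma on FPKM (-1.95) and without every single library except FOXA2f/f replicate 2 (-4.17 to -3.63 over the libraries left out). With the replicate block 0 genes were called, Foxa2 was at -3.88 (adjusted p = 0.0536) and the members' median at -0.21, and deviations of same-numbered libraries correlated at -0.07, 0.03 and -0.23 for replicates 1, 2 and 4, so that the numbers were not taken to pair the libraries. The log2 ratio of periportal to pericentral sums kept its direction, from -0.78 to -0.15 with 1 library left out. Counting error was at most 3.46% of the level for any member, and 22.9% for Foxa2 in its lowest library.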
